A study of Mus musculus with 10 samples.

Results

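The 10 cytokine genes described here are Il4, Il13, Il6, Il1a, Il1b, Il1rn, Tnf, Tgfb1, Osm and Il10, taken by symbol from a table of 35725 gene rows, and all 10 were found. They were measured by RNA sequencing in eosinophils that had been sorted by flow cytometry out of lungs of male mice: 5 libraries come from C57BL/6J wild-type animals (WT) and 5 from P2ry14-null animals, which lack the receptor P2Y14 for UDP-sugars. All animals, of both genotypes, had 2 oropharyngeal sensitizations with a mixture of ovalbumin (50 µg) and a protease of Aspergillus oryzae (20 µg), then a 1% ovalbumin aerosol 7 days after the last one, and cells were taken 16 h after the aerosol. There was no unchallenged group, so the levels describe challenged lungs only. The labels give neither the allele nor the strain background of the P2ry14-null mice, nor the ages, nor whether each library came from its own mouse, so each p-value reflects spread among these samples alone, and that spread may be technical.

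Eosinophils are granulocytes that keep cytokine transcripts and preformed cytokine protein ready for release. Interleukin-4 and interleukin-13 are the core signals of type 2 immunity and act through receptors that share the interleukin-4 receptor alpha chain. Interleukin-6, tumor necrosis factor, oncostatin M and the interleukin-1 cytokines carry acute inflammatory signals, and the interleukin-1 receptor antagonist, transforming growth factor beta 1 and interleukin-10 restrain them.

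Libraries held 67161968 to 185124080 reads counted to genes, with P2ry14-null library 1 the shallowest. P2ry14 itself had 206 to 229 CPM (counts per 1000000 counts of the library) in 4 WT libraries and 190 in the fifth, against 21.8 to 24.2 in P2ry14-null libraries. The 12 eosinophil marker genes summed to 11912 to 12834 CPM in WT and 12000 to 12713 in P2ry14-null. P2ry14-null library 2 stood apart: its 14 macrophage and monocyte markers summed to 2661 CPM against 944 to 1235 in the other 9 libraries, and its 9 dendritic cell markers to 344 against 64.9 to 121. Its lung epithelium markers summed to 78.7 CPM against 10.2 to 31.3, and its B and plasma cell markers to 56.5 against 17.2 to 34.3. In bulk samples, fewer cells of a type and less RNA per cell cannot be told apart. Each comparison below is given with all libraries, and where it rests on a single library that library is named.

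Lung eosinophils carried transcripts of most of these cytokines at widely different levels, and the most abundant was the antagonist. Per kb of exon, WT eosinophils held 1115 ± 113 CPM of Il1rn (SD, n = 5 here and below), the secreted protein that occupies the interleukin-1 receptor without signalling. Il1b followed at 620 ± 53.5 CPM per kb and Osm at 614 ± 76.4, and the libraries of these 2 overlapped. A middle group held Il1a at 91.4 ± 17.5, Tgfb1 at 81.1 ± 4.19 and Il4 at 75.7 ± 8.75 CPM per kb, with overlap between neighbours. Il6 stood at 29.2 ± 5.13, Tnf at 16.7 ± 3.64 and Il13 at 10.2 ± 1.76 CPM per kb. Il10 was close to the limit of detection at 0.0445 ± 0.0266 CPM per kb.

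The order was the same in P2ry14-null libraries, where Il1rn had 1048 ± 129 and Tnf 12.8 ± 1.44 CPM per kb. Neighbours that did not overlap in either genotype were Il1rn and Il1b, Osm and Il1a, Il4 and Il6, Tnf and Il13, and Il13 and Il10. With the longest transcript of each gene in place of all annotated exons, Tgfb1 and Il4 moved above Il1a, and the other 7 genes kept their places. Il4 was 7.59 ± 1.21 times as abundant per kb as Il13 in WT libraries and 7.91 ± 1.29 times in P2ry14-null libraries. Il1rn had 1.57 ± 0.114 times the summed level of Il1a and Il1b per kb in WT and 1.58 ± 0.246 times in P2ry14-null.

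**Figure D1:**
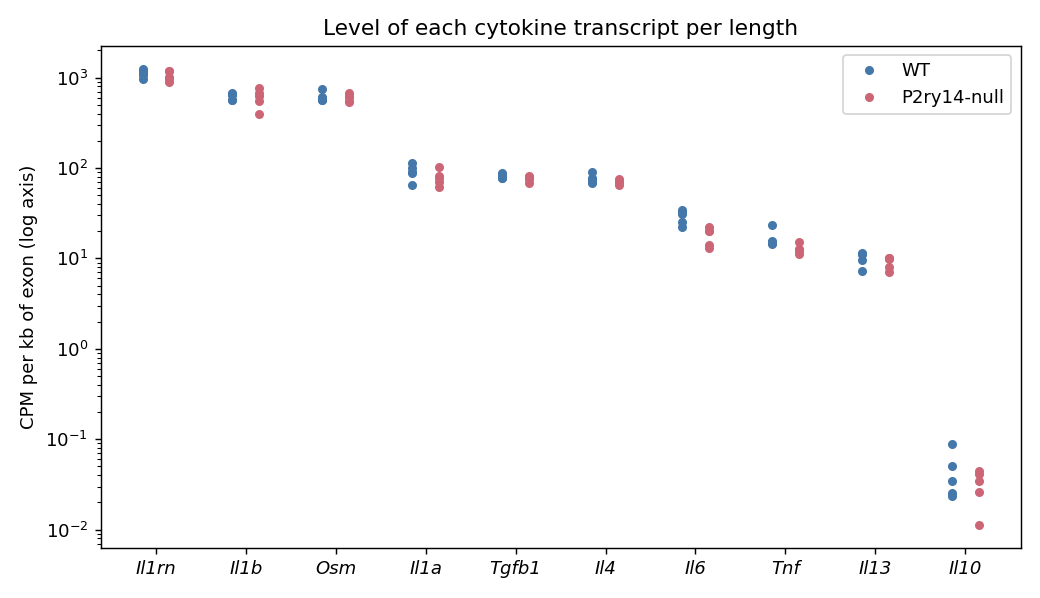
Level of each cytokine transcript in CPM per kb of exon (log axis), 1 point per library, WT in blue and P2ry14-null in red, in order of the WT mean. Il1rn is highest at a WT mean of 1115 and Il10 lowest at 0.0445, and the order is the same in both genotypes.

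Between genotypes, Il6 had the largest difference of the tested cytokine genes, with all 5 P2ry14-null libraries below the lowest WT library. Interleukin-6 signals through gp130 to STAT3 and acts on many cells of the inflamed lung. WT libraries 1 to 5 held 75.4, 54.5, 82.3, 81.5 and 61.4 CPM of Il6. In P2ry14-null libraries 1 to 5 it stood at 48.5, 34.0, 54.0, 48.5 and 31.8 CPM. The lowest WT library, library 2, lay just above the highest P2ry14-null library, library 3, so the groups did not overlap. Groups that do not overlap, in either direction, were found for 0.648% of the 15586 tested genes (P2ry14-null lower in 0.359% and higher in 0.289%). In the gene lists described below, such genes were Relb, Arid5a, Nfkbia, Dnajb1, Egr1 and Cpa3 (P2ry14-null lower) and Eln (P2ry14-null higher).

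The mean of Il6 was 71.0 ± 12.5 CPM in WT and 43.4 ± 9.86 CPM in P2ry14-null, or 61.1% of WT. On the log2 scale the difference, P2ry14-null minus WT, was -0.71 ± 0.16 (SE), and Il6 did not pass the main test (edgeR quasi-likelihood test, adjusted p = 0.568 over 15586 genes, unadjusted p = 5.1e-04). With single libraries left out it ran from -0.80 to -0.62 and the edgeR adjusted p from 0.313 to 1.00. DESeq2 called Il6 with nearly the same fold change (adjusted p = 0.0032). Once replicate numbers entered edgeR as a block, the value was -0.73 ± 0.06 (adjusted p = 0.0013), although same-numbered libraries are not known to share anything but the number.

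**Figure D2:**
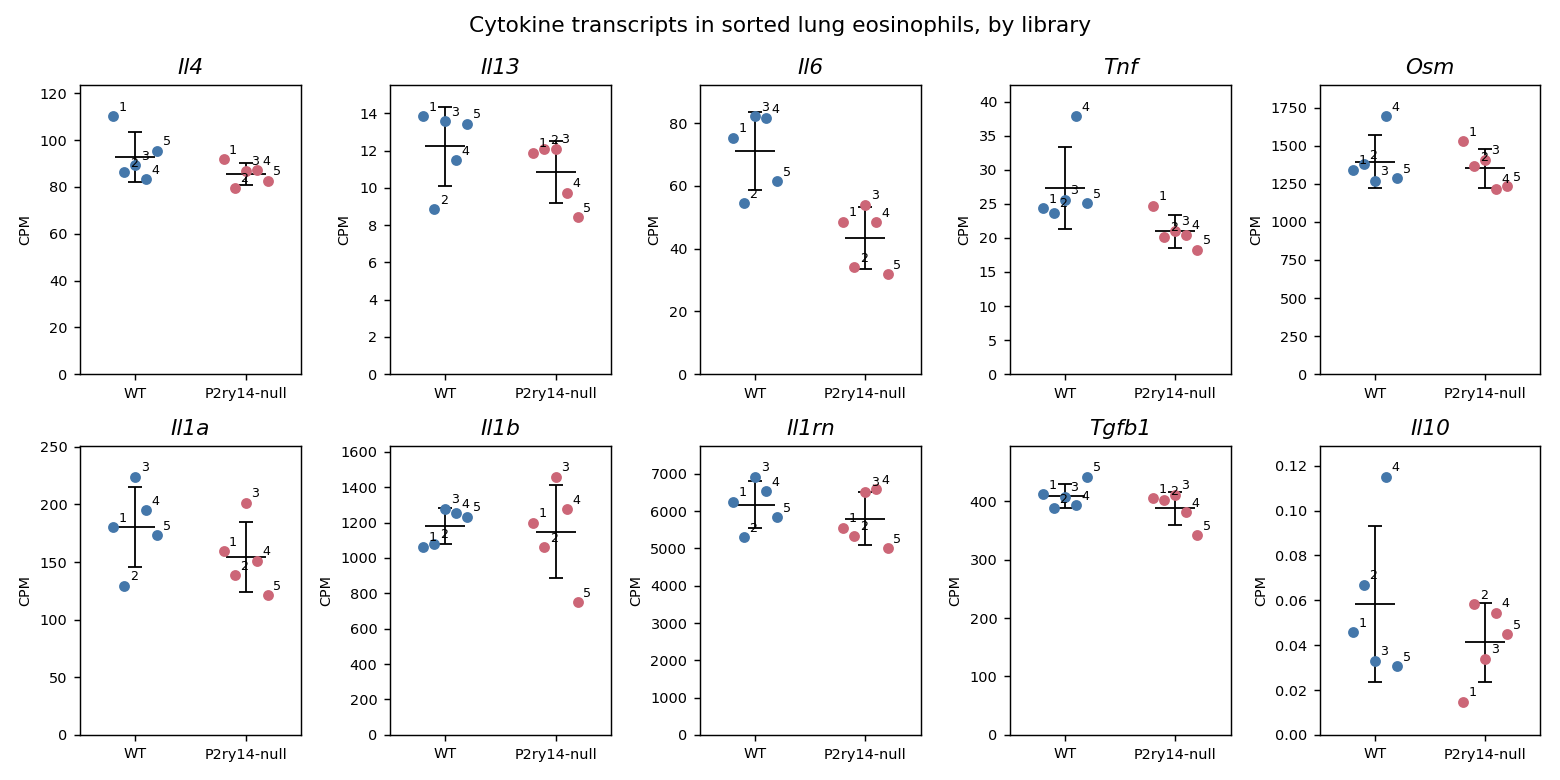
CPM of each of the 10 cytokine genes (linear axes from 0), 1 point per library with its number, WT in blue and P2ry14-null in red, and black bars for the mean ± SD (n = 5). In Il6 the 5 P2ry14-null libraries lie between 31.8 and 54.0, below all WT libraries, while the groups overlap in the other 9 genes.

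Of the 9 cytokine genes with enough reads to be tested, edgeR called 0, where it called 0.0385% of all tested genes (0.0128% higher and 0.0257% lower in P2ry14-null). At an unadjusted p under 0.05 there were 2, Il6 and Tnf, both lower, where 4.13% of all genes had such a p and 2.67% had it and were lower. DESeq2 called 1 of the 9 (0.118% of all genes), edgeR with the block 1 (0.0385%) and DESeq2 with the block 1 (0.366%), each time Il6. All 9 had a log2 fold change below 0, as had 48.8% of all tested genes, and their median was -0.12 beside 0.003 over all genes. The 9 share their libraries and several of them varied together, so they are not 9 separate observations.

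**Figure D3:**
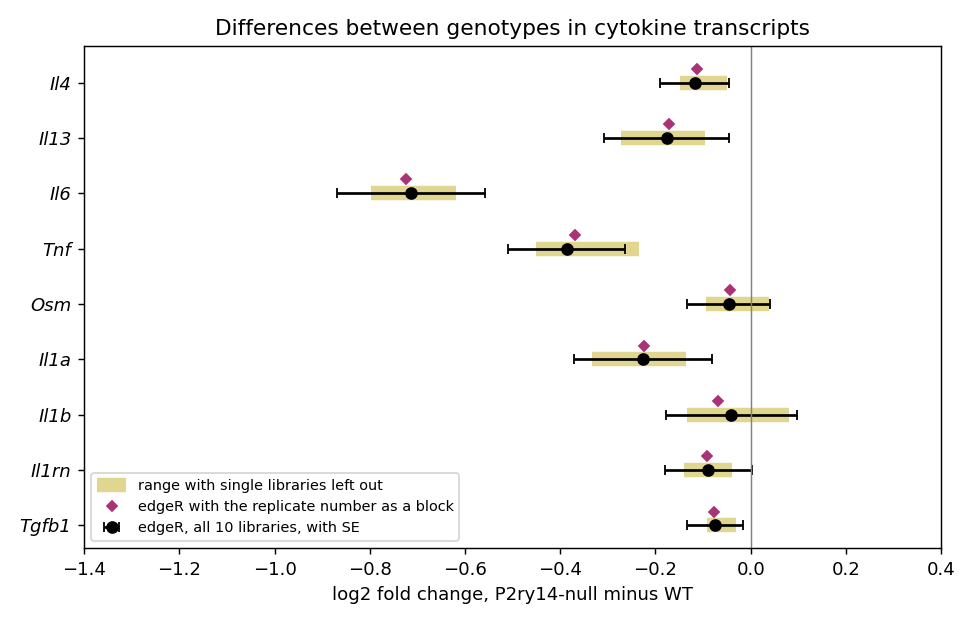
Log2 fold change of the 9 tested cytokine genes, P2ry14-null minus WT. Black points and bars give the edgeR estimate and its SE, yellow bands the range with single libraries left out, and purple diamonds the fit with the replicate number as a block. Il6 lies at -0.71, Tnf at -0.39, and the bands of Il1b and Osm cross 0.

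Il6 (gene ID 16193) maps to the plus strand of chromosome 5 (mm10, 30013114 to 30019975), and its exons overlap no other annotated gene. Its promoter is shown because Il6 had the largest difference and because the promoters of Il6 and of the type 2 pair hold different sets of motif matches. The 250 bases before the start (RefSeq, GRCm38.p6, chr5:30012864-30013113, plus strand) read as follows, with capitals for matches on either strand to the NF-kB decamer (GGGA, then any base, then TTTCC), AP-1 (TGANTCA), NFAT (TGGAAA), the site of GATA factors (AGATAA), C/EBP (TTGCNNAA), the CRE core (TGACGT) or the heat shock element.

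Il6: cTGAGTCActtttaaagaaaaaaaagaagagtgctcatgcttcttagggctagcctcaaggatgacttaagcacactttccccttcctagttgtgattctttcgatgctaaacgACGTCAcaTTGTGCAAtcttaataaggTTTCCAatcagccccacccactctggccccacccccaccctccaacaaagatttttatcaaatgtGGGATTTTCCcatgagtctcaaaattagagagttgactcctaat

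The Il6 promoter held 1 match each to NF-kB (bases -44 to -35 from the start), AP-1 (-249 to -243), NFAT (-109 to -104), C/EBP (-128 to -121) and the CRE core (-136 to -131), and 0 to the heat shock element. Among 32841 mouse promoters of this length, 0.356% held the NF-kB letters, 6.75% AP-1, 18.6% NFAT, 9.57% C/EBP and 6.47% the CRE core. Of the 8 cytokine genes with a promoter in the RefSeq table (11 start sites, Osm and Il10 not among them), only Il6 held the NF-kB letters in this window. A match describes letters and is not evidence of binding, which was not measured.

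Tnf, the gene of tumor necrosis factor, an inducer of NF-kB signalling and vessel activation, was also lower in most P2ry14-null libraries. WT libraries 1 to 5 held 24.3, 23.7, 25.6, 37.9 and 25.1 CPM. In P2ry14-null libraries 1 to 5 Tnf stood at 24.7, 20.2, 21.1, 20.5 and 18.3 CPM. Of the P2ry14-null libraries, 4 lay below every WT library and library 1 lay among them. WT library 4 was far above the other 4 WT libraries. On the log2 scale Tnf differed by -0.39 ± 0.12 (SE, adjusted p = 0.999 and unadjusted p = 0.0079 by edgeR). Without WT library 4 the difference was -0.23 ± 0.07 (adjusted p = 0.964 and unadjusted p = 0.0081 by edgeR). It was -0.45 without P2ry14-null library 1. DESeq2 gave an adjusted p of 0.464, and 0.080 with the replicate block. Tnf (gene ID 21926) lies on chromosome 17 at 35199367 to 35202007, minus strand, between Ltb and Lta.

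Osm encodes oncostatin M, a gp130 cytokine that acts on epithelium, fibroblasts and endothelium, and showed no difference beyond the spread of its libraries. WT libraries 1 to 5 held 1342, 1380, 1272, 1697 and 1289 CPM. In P2ry14-null libraries 1 to 5 Osm stood at 1529, 1368, 1408, 1219 and 1235 CPM. WT library 4 was again the highest of its group, and the groups overlapped. Its difference on the log2 scale was -0.05 ± 0.09 (SE; adjusted p = 0.999 by edgeR), which turned to 0.04 without WT library 4. Osm (gene ID 18413) lies on chromosome 11 at 4236785 to 4241026, plus strand, 16.5 kb from Lif, another gp130 cytokine gene.

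The interleukin-1 genes lie on chromosome 2: the minus strand carries Il1a (gene ID 16175, 129299609 to 129310877) and Il1b (gene ID 16176, 129363842 to 129371170), and the plus strand Il1rn (gene ID 16181, 24336860 to 24351491). Il1a encodes a cytokine that is active without cleavage and also kept on membranes, and Il1b one that is cleaved by caspase-1 before release. Il1a held 180, 129, 224, 195 and 173 CPM in WT libraries 1 to 5 and 159, 138, 202, 151 and 121 in P2ry14-null libraries 1 to 5. Libraries numbered 3 were the highest of both groups, and the groups overlapped. The log2 fold change of Il1a was -0.23 ± 0.14 (SE, edgeR adjusted p = 0.999). With single libraries left out it ran from -0.33 (without P2ry14-null library 3) to -0.14 (without WT library 3). It was -0.15 leaving out P2ry14-null library 5.

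Il1b held 1063, 1080, 1278, 1255 and 1233 CPM in WT libraries 1 to 5 and 1198, 1062, 1460, 1275 and 751 in P2ry14-null libraries 1 to 5. P2ry14-null library 5 was the lowest of all 10 and P2ry14-null library 3 the highest. The log2 fold change of Il1b, -0.04 ± 0.14 (SE; adjusted p = 0.999 by edgeR), became 0.08 without P2ry14-null library 5. Its coefficient of variation was 8.63% in WT and 23.0% in P2ry14-null.

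Il1rn held 6258, 5303, 6925, 6533 and 5836 CPM in WT libraries 1 to 5 and 5553, 5344, 6523, 6585 and 5000 in P2ry14-null libraries 1 to 5. The groups overlapped over nearly their whole range (log2 fold change -0.09 ± 0.09, SE; edgeR adjusted p = 0.999; -0.04 without P2ry14-null library 5 or WT library 3, and -0.14 without P2ry14-null library 4 or WT library 2). Some exon bases of Il1a (11.2%) and Il1b (1.31%) are shared with annotated genes on the opposite strand, Gm14023 and Il1bos. The strand setting of the counting is not given in the sources used here, so reads of these antisense genes could be included.

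The type 2 cytokine genes Il4 and Il13 were present in all libraries and did not differ between genotypes beyond the spread of the libraries. Interleukin-4 drives T helper type 2 differentiation and IgE class switching, and interleukin-13 drives mucus production and airway hyperreactivity. Il4 held 110, 86.2, 89.3, 83.3 and 95.4 CPM in WT libraries 1 to 5 and 91.8, 79.7, 87.0, 87.0 and 82.7 in P2ry14-null libraries 1 to 5. WT library 1 was the highest, and the groups overlapped. The log2 fold change of Il4 was -0.12 ± 0.07 (SE, edgeR adjusted p = 0.999), -0.05 without WT library 1 and -0.15 without WT library 4.

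Il13 held 13.9, 8.84, 13.6, 11.5 and 13.4 CPM in WT libraries 1 to 5 and 11.9, 12.1, 12.1, 9.73 and 8.42 in P2ry14-null libraries 1 to 5. WT library 2 and P2ry14-null library 5 were the low ones, and the groups overlapped (log2 fold change -0.18 ± 0.13, SE; edgeR adjusted p = 0.999; -0.10 without P2ry14-null library 5 and -0.27 without WT library 2). Il4 (gene ID 16189; 53612460 to 53618665) and Il13 (gene ID 16163; 53631323 to 53634702) are neighbours on the minus strand of chromosome 11, with a gap of 12.7 kb. Their promoters are shown with the same capitals as for Il6 (RefSeq, GRCm38.p6, minus strand, chr11:53618666-53618915 for the Il4 start at the gene's end in the table and chr11:53634703-53634952 for Il13).

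Il4: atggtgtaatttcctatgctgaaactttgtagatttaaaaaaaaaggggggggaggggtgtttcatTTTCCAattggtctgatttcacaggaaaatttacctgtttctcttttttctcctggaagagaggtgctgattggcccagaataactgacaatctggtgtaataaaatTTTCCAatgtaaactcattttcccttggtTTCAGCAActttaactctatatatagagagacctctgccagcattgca
Il13: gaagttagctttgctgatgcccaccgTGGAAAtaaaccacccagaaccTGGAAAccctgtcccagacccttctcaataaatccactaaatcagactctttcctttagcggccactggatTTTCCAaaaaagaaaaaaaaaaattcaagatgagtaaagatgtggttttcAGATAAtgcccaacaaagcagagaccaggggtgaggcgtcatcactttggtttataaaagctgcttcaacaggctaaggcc

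The Il4 window held 2 NFAT matches (-184 to -179 and -77 to -72) and 1 to C/EBP (-48 to -41). The window of the other Il4 start in RefSeq (chr11:53617339-53617588, not shown) held no match to any of these motifs. The Il13 window held 3 NFAT matches (-224 to -219, -202 to -197 and -131 to -126) and 1 to GATA (-81 to -76), letters found in 9.99% of all promoters. NFAT factors are activated by calcium signals, and GATA factors include lineage factors of eosinophils.

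Of the restraining cytokines, Tgfb1 overlapped between genotypes and Il10 could not be tested. Tgfb1, a broad regulator of repair and tolerance, held 412, 388, 408, 394 and 442 CPM in WT libraries 1 to 5 and 405, 402, 411, 381 and 341 in P2ry14-null libraries 1 to 5. It was the steadiest of the 9 tested genes in WT, with a coefficient of variation of 5.17%. P2ry14-null library 5 was the lowest of the 10. The log2 fold change of Tgfb1 was -0.07 ± 0.06 (SE, edgeR adjusted p = 0.999), -0.03 without that library and -0.09 without WT library 2. Tgfb1 (gene ID 21803) lies on chromosome 7 at 25687002 to 25705077, plus strand. Il10, the gene of the main anti-inflammatory interleukin, had 4 to 18 reads in WT libraries and 1 to 9 in P2ry14-null libraries. The 5 WT libraries together had 42 and the 5 P2ry14-null libraries 29, too few for the filter, so Il10 was not tested. In CPM Il10 ranged from 0.0307 to 0.115 among WT and from 0.0148 to 0.0584 among P2ry14-null libraries, where 3 reads, the most that finding none would allow, equal 0.0165 to 0.0445 CPM. Il10 (gene ID 16153) lies on chromosome 1 at 131019845 to 131024970, plus strand.

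Most of the cytokine genes varied more between libraries of a genotype than genes of like level. In WT the coefficient of variation was 21.8% for Tnf, 19.1% for Il1a, 17.5% for Il6 and 17.3% for Il13, where genes within 2-fold of their levels had medians of 7.60%, 7.58%, 7.52% and 8.23%. In P2ry14-null libraries it was 22.7% for Il6 and 19.5% for Il1a, beside medians of 4.42% and 4.36%. The coefficient was above that median for 8 of the 9 tested genes in WT (all but Tgfb1) and for 9 of 9 in P2ry14-null libraries.

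Within genotypes several of the genes varied together from library to library. After the mean of each genotype was taken away, log2 CPM of Il6 and Il1rn correlated with Pearson's r = 0.902 over the 10 libraries, Il6 and Il1a with 0.888, Il1a and Il1rn with 0.864, and Il6 and Il1b with 0.775. Tnf and Osm also varied together (r = 0.874), both high in WT library 4 and in P2ry14-null library 1. Il4 followed none of these closely (0.314 with Il6, -0.239 with Tnf and 0.471 with its neighbour Il13). Il13 was closest to Tgfb1 (r = 0.825). These values describe the same 10 libraries, share their depth and scaling, and were not tested.

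By the same measure, the genes most like Il6 among 8481 with a mean of at least 5 CPM were Ifngr1 (r = 0.945), Ripk1 (0.942) and Serpinb2 (0.937). For Il1a they were Top1, Ifngr1 and Serpinb2 (0.899 to 0.950), for Il1b Traf6, Susd6 and Lmtk2 (0.917 to 0.956), and for Il1rn Slc38a2, Cldnd1 and Ripk1 (0.927 to 0.960). For Tnf they were Ckap2l, Acpp and Ptpn11 (0.899 to 0.920), for Osm Elac2, Tyw1 and Eftud2 (0.932 to 0.963), and for Tgfb1 Kmt5a, Eef2 and Plod1 (0.935 to 0.954). For Il4 they were Map2k3, Faim and Syf2 (0.957 to 0.962), and for Il13 Ticam2, Ddx21 and Lrrfip1 (0.906 to 0.943). These values are a description over the same 10 libraries and were not tested.

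**Figure D4:**
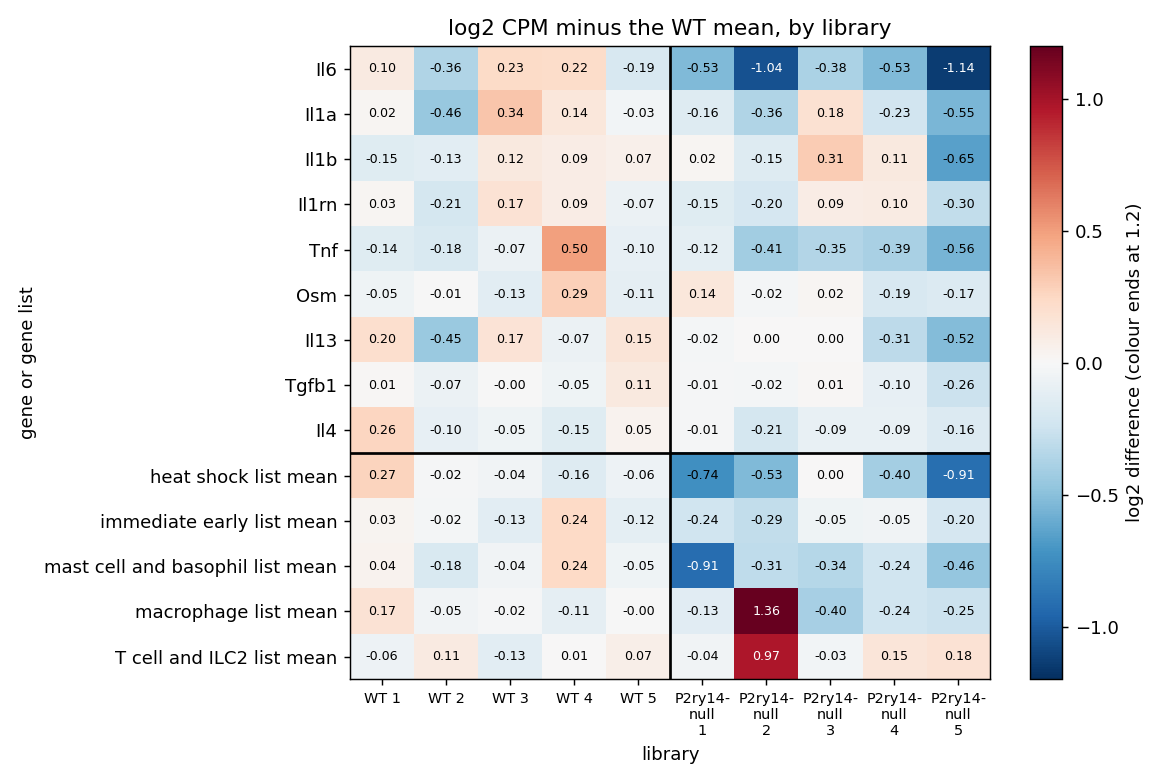
Log2 CPM minus the WT mean for each library (columns) and each tested cytokine gene or the mean of a gene list (rows), red above and blue below the WT mean. Il6 is below the WT mean in all 5 P2ry14-null libraries (-0.38 to -1.14), as are Tnf (-0.12 to -0.56) and Il4 (-0.01 to -0.21). The immediate early list (-0.05 to -0.29) and the mast cell and basophil list (-0.24 to -0.91) are also below it in all 5. The heat shock list ranges from 0.002 to -0.905 there.

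The transcripts also differ in AU-rich elements, ATTTA letters in the 3′ untranslated region that are known to bind factors controlling the decay of cytokine mRNA. In the 3′ untranslated region of 1 annotated transcript per gene (GENCODE, GRCm38), Tnf held 8 ATTTA matches, Il6, Osm and Il10 6 each, Il1b 4, Il1a and Il13 3 each, Il4 2, Tgfb1 1 and Il1rn 0. Over 21005 genes the median was 1, and 19.1% held 5 or more. The regions differ in length, from 104 bases in Il4 to 1306 in Il1rn. Per kb, Il4 held 19.2 matches, Il6 14.05, Tnf 10.5, Il1b 8.7, Il10 8.5 and Tgfb1 7.4. Osm held 5.9 per kb, Il13 4.0 and Il1a 2.7, where the median over all genes was 1.14. The longer letters TTATTTATT, searched on the transcript strand, were held 5 times by Tnf and 1 time by Il13, and by 6.99% of all genes. The antagonist transcript, the most abundant of the set, was the one without a match. Of the next in level, Il1b (620 CPM per kb in WT) held 4 and Osm (614) held 6. Tgfb1 (81.1) held 1 and Il13 (10.2) held 3. Whether matches go with levels was not tested. The densest 30-base stretches of some of the inflammatory cytokines are shown with ATTTA in capitals. They are Tnf at chr17:35199677-35199706 (minus strand), Il1b at chr2:129364801-129364830 (minus), Il6 at chr5:30019691-30019720 (plus) and Osm at chr11:4240952-4240981 (plus).

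Tnf: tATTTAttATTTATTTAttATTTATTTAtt
Il1b: ttacctATTTATTTAtgtATTTAttgattg
Il6: ATTTAttgataATTTAaataagtaaacttt
Osm: tttataaggcctATTTAtaatgtatATTTA

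Other cytokine genes were examined as a list of 49, of which 48 were in the table and 31 had enough reads. For this and all lists below, 48.8% of all tested genes lay below 0 and 4.13% had an unadjusted p under 0.05. Over all genes edgeR called 0.0385%, with and without the block, DESeq2 0.118% and DESeq2 with the block 0.366%. Genes of a list share these libraries and are not separate observations. edgeR called 0 of the 31 and DESeq2 0, with and without the block, and 4 had an unadjusted p under 0.05, 3 of them lower in P2ry14-null. The median log2 fold change was -0.05. Csf2, the gene of the eosinophil survival factor GM-CSF, stood at 0.580 ± 0.168 (WT) and 0.362 ± 0.0672 CPM (P2ry14-null) (log2 fold change -0.68 ± 0.21, SE). Il23a, a subunit of interleukin-23, had 1.00 ± 0.359 and 0.649 ± 0.213 CPM (-0.62 ± 0.25). Il3, Il9 and Il25 had 0 reads in all 10 libraries, and Il5 had 13 reads in WT libraries together and 42 in P2ry14-null libraries (these 4 were named after their values were seen).

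Receptor genes of the cytokines lay as often above as below 0. Of 16 tested receptor chains, 8 lay below and 8 above 0 with a median of 0.001, edgeR and DESeq2 called 0, and 2 had an unadjusted p under 0.05. Il2rg, the common gamma chain, stood at 40.1 ± 3.51 (WT) and 34.6 ± 1.01 CPM (P2ry14-null) (-0.21 ± 0.06, SE). Lifr, a chain of the receptors for LIF and oncostatin M, had 18.0 ± 2.15 and 20.7 ± 0.955 CPM (0.21 ± 0.08). Of 21 tested genes for processing and release (caspases, ADAM17, latent TGF-beta binding proteins), edgeR and DESeq2 called 0 and 0 had an unadjusted p under 0.05. Nrros, which tethers latent TGF-beta, had 216 ± 4.39 and 204 ± 10.9 CPM, and Ltbp4, a latent TGF-beta binding protein, 0.258 ± 0.0206 and 0.320 ± 0.0863 CPM.

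Regulators of cytokine genes also stayed short of the threshold in edgeR and in DESeq2 without the block. Of 28 transcription factor genes, 17 lay below 0 (median -0.04), edgeR and DESeq2 called 0, and 4 had an unadjusted p under 0.05, all lower. Relb, an NF-kB subunit, stood at 30.8 ± 3.75 (WT) and 25.6 ± 0.883 CPM (P2ry14-null) (-0.27 ± 0.07, SE), and Gata2, a factor of mast cells, basophils and eosinophils, 46.8 ± 4.37 and 40.1 ± 5.62 (-0.23 ± 0.09). Of 23 genes for cytokine mRNA stability, 11 lay below 0 (median 0.01), edgeR and DESeq2 called 0 and 3 had an unadjusted p under 0.05. Tnfaip3, counted in this list although its product A20 is an NF-kB inhibitor, had 4744 and 4141 CPM (-0.20 ± 0.07). Tia1, which binds AU-rich RNA, had 35.7 and 40.5 CPM (0.18 ± 0.07). Of 23 cytokine response and feedback genes, 14 lay below 0 (median -0.02), edgeR and DESeq2 called 0, and 3 had an unadjusted p under 0.05. DESeq2 with the block called 2 of these 23: Nfkbia, the NF-kB inhibitor, at 3144 and 2586 CPM (-0.28 ± 0.08), and Retnla, a target of interleukin-4 and interleukin-13, at 1772 and 2383 CPM (0.43 ± 0.12).

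Heat shock and immediate early genes, which respond to stress and stimulation, are given beside Il6, and their part in its difference was not tested. All 18 heat shock genes lay below 0, as did 48.8% of all tested genes, with a median log2 fold change of -0.44. edgeR called 0 of them, and 12 had an unadjusted p under 0.05 (4.13% of all tested genes). DESeq2 called 1, Dnajb1, a co-chaperone of HSP70 (0.118% of all genes), and 3 with the block (0.366%). Dnajb1 stood at 62.3 ± 6.99 (WT) and 45.1 ± 6.19 CPM (P2ry14-null), and Bag3, another co-chaperone, at 15.9 ± 2.63 and 12.2 ± 1.27. Their summed level was 2667, 2290, 2261, 1880 and 2450 CPM in WT libraries 1 to 5 and 1485, 1632, 2387, 1791 and 1181 in P2ry14-null libraries 1 to 5. Among P2ry14-null libraries, library 3 was the highest and library 5 the lowest in both this sum and Il6. Among WT libraries the orders differed: library 4 had the lowest sum with 81.5 CPM of Il6, the second highest, and library 1 the highest sum with 75.4 CPM. Of 24 immediate early genes, 19 lay below 0 (48.8% of all tested genes), with a median of -0.07. edgeR and DESeq2 called 0 and 4 had an unadjusted p under 0.05 (4.13% of all tested genes). Egr1 stood at 677 ± 197 CPM in WT and 418 ± 83.5 in P2ry14-null (-0.70 ± 0.18, SE), and Egr3 at 37.7 ± 5.94 and 27.4 ± 5.82.

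Mast cells and basophils also make Il4, Il13 and Il6. All 9 tested genes of their 13 markers lay below 0 (48.8% of all tested genes), with a median of -0.47. edgeR called 0, and 3 had an unadjusted p under 0.05 (4.13% of all tested genes). DESeq2 (0.118% of all genes), edgeR with the block (0.0385%) and DESeq2 with the block (0.366%) each called Hdc, the histamine-forming enzyme. The 13 markers summed to 102 to 117 CPM in WT and 70.8 to 92.7 in P2ry14-null, without overlap. Among single tested genes the groups did not overlap in 0.648%. Most of that sum came from Gata2 (46.8 and 40.1 CPM) and Hdc (46.0 ± 7.08 and 29.3 ± 6.51 CPM), which are not specific to these cells. The defining proteases were close to 0: Mcpt8 of basophils stood at 0.490 ± 0.182 (WT) and 0.312 ± 0.155 CPM (P2ry14-null), and Cpa3 at 0.568 ± 0.0841 and 0.351 ± 0.0888 (-0.67 ± 0.19, SE). The part of these cells in the cytokine levels was not tested.

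Markers of T cells, innate lymphoid cells, macrophages and neutrophils were also summed. The 11 T cell and ILC2 markers summed to 489 to 579 CPM in WT and 490 to 546 in P2ry14-null, nearly all of it Il1rl1 (528 and 506 CPM), the interleukin-33 receptor that eosinophils also carry, with Il7r at 1.62 and 2.02 CPM. Their median log2 fold change was 0.33, and 0.03 without P2ry14-null library 2. edgeR and DESeq2 called 0 of 11 and 0 had an unadjusted p under 0.05. The mean of this list was 0.97 above WT on the log2 scale in P2ry14-null library 2. The macrophage markers had a median log2 fold change of 0.34, which turned to -0.21 without that library. P2ry14-null library 2, with its higher macrophage, dendritic cell, B cell and lung epithelium markers, had the second lowest Il6 (34.0 CPM). Without this library the log2 fold change of Il6 was -0.64. The 10 neutrophil markers summed to 3714 to 4654 CPM in WT and 3728 to 5410 in P2ry14-null, mostly Retnlg (3782 and 4103 CPM). Cxcr2 was next at 133 and 130 CPM. Other neutrophil markers were low: Ly6g stood at 1.24 ± 0.151 (WT) and 1.65 ± 0.360 CPM (P2ry14-null). S100a8 had 0.981 ± 0.213 and 1.97 ± 1.53 CPM. Of the other marker lists, edgeR called 0 of 12 eosinophil, 13 macrophage, 9 dendritic cell, 9 neutrophil, 6 NK cell, 7 B and plasma cell, 9 lung epithelium and 8 endothelium and stroma genes. In the same order 2, 1, 1, 3, 0, 0, 3 and 2 of them had an unadjusted p under 0.05, and DESeq2 called 0. DESeq2 with the block called 1, the eosinophil granule gene Prg3 (6.29 ± 0.766 CPM in WT and 4.68 ± 0.663 in P2ry14-null). Epx, the other eosinophil marker with an unadjusted p under 0.05, was higher in P2ry14-null (23.9 ± 0.920 and 28.1 ± 3.35 CPM). Of the 12 eosinophil markers, 7 lay above 0 and 5 below.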

How the data were processed

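The deposited values are raw gene counts in whole numbers, 10 libraries in 1 table, whose column names equal the sample titles that gave group and replicate number. The authors used STAR 2.5, featureCounts 1.5.0-p1 of Subread, DESeq2 and mm10, per the submitters' processing notes. How they handled strand and multi-mapped reads, and their annotation release, is not given in the sources used here. Counts were analysed with edgeR 4.0.16 in R 4.3.3: TMM factors, the default low-count filter, genotype as the single term, quasi-likelihood F tests, and p-values adjusted by Benjamini-Hochberg over 15586 genes at a threshold of 0.05, after the code was tested on simulated data. CPM values use TMM-scaled totals, and each SE was derived from the fold change and its F statistic. No pair of libraries within a group agreed within sampling noise (chi-square of at least 22.2 per gene). The limit of 3 reads covers counting error only, while SD and SE cover the spread between libraries. Alternatives were RLE factors, no filter, DESeq2 1.42.0, the replicate number as a block, single libraries left out, raw totals and other gene lengths. The labels do not say what same-numbered libraries share, so the numbers were not taken as pairs in the main test. Over all tested genes, deviations of same-numbered libraries from their genotype means correlated at -0.093 to 0.094. For Il6 alone the log2 deviations were 0.10, -0.36, 0.23, 0.22 and -0.19 in WT libraries 1 to 5. In P2ry14-null libraries 1 to 5 they were 0.19, -0.32, 0.35, 0.19 and -0.42. The 10 genes and the gene lists were chosen with earlier results of these data known. In each list, up to 4 genes past the threshold, or else the 2 with the smallest p, were named, in marker lists also the 2 most abundant (for some lists only the sums are given), and 3 genes most like each cytokine gene. Mcpt8 and others noted in the text were named after their values were seen. Lengths and overlaps come from GENCODE vM21 on GRCm38, promoters from RefSeq on GRCm38.p6.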

Additional observations from a re-analysis of the deposited data

Results flagged for a closer look

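In each genotype, the highest or lowest of the 5 libraries was compared with the rest for each of the 10 genes, 20 groups in all, and 2 groups held a library far from the others; chance flags about 1 group in 20. WT library 4 held 37.9 CPM of Tnf, where the other WT libraries held 23.7 to 25.6, a gap of 0.863 of the whole range. The same library held 1697 CPM of Osm, where the others held 1272 to 1380, a gap of 0.746 of the range. The immediate early list was also highest in this library among WT (0.24 above the WT mean on the log2 scale). These are given as values, and no explanation was tested.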

How the results depend on the processing

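The cytokine result depended on the tool and the block in a single gene. The number of the 9 tested genes past the threshold was 0 with all edgeR fits without a block, including each of the 10 fits with a library left out (lowest 0, highest 0), and 1, Il6, with DESeq2, with the replicate block in edgeR and with the replicate block in DESeq2 (adjusted p = 0.0032, 0.0013 and 9.58e-23; log2 fold changes -0.712, -0.725 and -0.724). In edgeR the SE of Il6 was 0.155 without the block and 0.058 with it, and same-numbered libraries deviated in the same direction for Il6. Why they did so, and why the tools differed, was not tested. Of 135 alternative fold changes of the 9 genes, 130 kept sign and side of the threshold, 3 passed it and 2 changed sign, Il1b at 0.08 without P2ry14-null replicate 5 and Osm at 0.039 without WT replicate 4 (with single libraries left out, Il1b ran from -0.133 to 0.08 and Osm from -0.095 to 0.039). Over all genes, DESeq2 called 19 (7 higher, 12 lower). The replicate block gave 6 in edgeR, 1 of them higher, and 45 in DESeq2 (7 higher, 38 lower). With single libraries left out there were 3 to 5 genes, 1 to 2 higher and 2 to 4 lower, beside 6 with all libraries, and the count was 3 without P2ry14-null replicate 1, 2, 3 or 5 or without WT replicate 4. List medians stayed within the spread between libraries in 282 of 285 alternatives. The exceptions were mast cell and basophil markers at -0.23 with the replicate block in DESeq2, macrophage markers (-0.21 to 0.479 with single libraries left out) and dendritic cell markers (-0.369 to 0.504), both lowest without P2ry14-null replicate 2. Without it the T cell and ILC2 median was 0.034. The order by level kept 7 of 10 places with the longest transcript and 7 with the longest protein-coding transcript, a choice added after the data were seen. Il10 is limited by depth.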
